A study of Mus musculus with 7 samples.

Results

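The respiratory chain is assembled from subunits made in separate compartments, and the subunit genes of both origins were followed here in liver RNA. Of the 23347 gene rows deposited for the study, 100 encoded a subunit of complexes I to V. Members were chosen by symbol, with 87 nuclear genes whose names begin Nduf, Sdh, Uqcr, Cyc1, Cox or Atp5 with the usual subunit letters, and the 13 protein-coding genes of mitochondrial DNA. No pseudogene row matched the nuclear pattern, and every member was tested except Cox8b, which had too few counts, so that 86 nuclear and 13 mitochondrially encoded genes entered the comparison.

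RNA came from whole livers of 7 young adult male mice on a C57BL/6 background. All had eaten CDAHFD for 15 weeks, a high-fat diet of defined L-amino acids without choline that is used to produce steatohepatitis. The control group is written B4galt1 flox/flox (4 mice, called WT in the labels), littermates with the floxed alleles, and the other group is written B4galt1 hep-/- (3 mice, called B4galt1-HKO in the labels), in which Cre under the albumin promoter is meant to remove the galactosyltransferase B4GALT1 from hepatocytes only. The comparison asks what hepatocyte loss of B4GALT1 changes in the fatty, inflamed liver. B4galt1 itself stood at 48.7, 53.0, 49.2 and 51.6 CPM (counts relative to the TMM-normalized library size) in the B4galt1 flox/flox livers and at 28.4, 23.9 and 53.7 CPM in the livers labelled B4galt1 hep-/- (log2 fold change -0.52 ± 0.26 (SE), adjusted p = 0.181, edgeR). Replicate 3 of the labelled group therefore did not show a lower level, which is why these libraries are called labelled hep-/- throughout. The exon removed was not given in the sources used here, and liver cells other than hepatocytes keep the gene.

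As background, the respiratory chain sits in the inner mitochondrial membrane. Complex I takes electrons from NADH, complex II from succinate, complex III passes them from coenzyme Q to cytochrome c, complex IV reduces oxygen, and complex V makes ATP from the proton gradient. Complex II is built from nuclear subunits alone, whereas the other complexes join nuclear subunits, imported after translation in the cytosol, to core membrane subunits that are transcribed from mitochondrial DNA as long polycistronic RNAs and translated inside the organelle. Liver is rich in mitochondria, and hepatocytes hold most of them.

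The origins went apart. Mitochondrially encoded mRNAs were higher in the labelled hep-/- livers, with a median log2 fold change of 1.92 (3.79-fold) and 12 of 13 genes called higher, while the nuclear subunit genes had a median of 0.09 with 4 called higher and 8 called lower of 86 tested. A gene was called when the log2 fold change was beyond 0.58 in either direction with an adjusted p under 0.05 in edgeR's quasi-likelihood test. Of all 15179 genes tested, 15.8% were called, 8% higher and 7.83% lower, and their median log2 fold change was 0.02. The 14% of nuclear members called was close to that background, while the 92.3% of mitochondrially encoded genes was not. In bulk tissue, fewer cells of a type and less RNA per cell cannot be told apart.

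Libraries held 37838654 to 39668509 counts in the flox/flox group and 30608271 to 34586588 in the labelled hep-/- group, so every labelled library was smaller. Across cell type marker lists, hepatocyte markers had 0 of 5 genes called by edgeR (3 at an unadjusted p under 0.05, and 3 called by DESeq2, 2 higher and 1 lower). Their log2 fold changes ran from -0.85 to 0.70, 4 of them above 0. Summed levels were 74272 to 112533 CPM in flox/flox and 91940 to 142834 CPM in labelled hep-/- livers. Of 5 Kupffer cell and macrophage markers, 3 were called lower (Adgre1, Cd68 and Trem2), and the summed level was 337 to 625 CPM against 193 to 257 CPM. Adgre1 had a log2 fold change of -1.88, and of -1.27 without flox/flox replicate 3, still called. Trem2 lost its call without flox/flox replicates 2 or 3 or without labelled hep-/- replicates 1 or 3 in turn (log2 fold change -0.72 to -0.88, adjusted p 0.0588 to 0.0750). Endothelial markers had 1 of 5 lower, Kdr, lost without flox/flox replicates 3 or 4 or without labelled hep-/- replicates 1, 2 or 3 in turn (log2 fold change -0.87 to -1.44, adjusted p 0.0747 to 0.104), and erythroid markers 1 of 3 higher, Hba-a1, lost without flox/flox replicates 1, 2, 3 or 4 or without labelled hep-/- replicates 1 or 3 in turn (log2 fold change 0.79 to 1.25, adjusted p 0.0576 to 0.149). Kdr also lost its call with voom weights (adjusted p = 0.130) and limma on log2(FPKM + 1) and log2(FPKM + 0.1) (0.0725 and 0.0572), and Hba-a1 with library totals (0.0624) and the same limma fits (0.0674 and 0.0671). Markers of cholangiocytes, stellate cells, T cells, B cells and neutrophils had none called of the 5, 5, 4, 3 and 3 tested by edgeR, with 0, 0, 0, 1 and 0 genes at an unadjusted p under 0.05 and 0, 0, 0, 1 and 0 called by DESeq2, and muscle and adipocyte markers were at or near 0. The part of these markers in the results was not tested. Over all tested genes, 8% were called higher and 7.83% lower by edgeR.

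Before the values, the rows of the mitochondrial genes need a closer look, because mouse nuclear DNA holds copies of mitochondrial DNA and reads that match both places equally cannot be placed by sequence alone. GENCODE M21 transcripts (build GRCm38) were aligned against each other with blastn. Of the 13 mitochondrial genes, 5 lay at least 99% inside a nuclear pseudogene transcript of at least 99% identity, namely ATP6, COX2, COX3, ND3 and ND4L, all with copies on chromosome 1. ND4 lay 63.6% and COX1 31.3% inside such a copy, and ATP8 21.1%, through the 43 bases by which it overlaps ATP6. Only annotated transcripts were searched, so copies outside them were not seen. ATP8 lies between COX2 and ATP6 in mitochondrial DNA. Copies of both lie close together on chromosome 1, and unannotated sequence between them was not searched. ND1 had no annotated copy of at least 90% identity, and the closest copies of ND2, ND5, ND6 and CYTB were 96.67%, 92.42%, 93.64% and 92.91% identical. The deposited counts were made on GRCm39, so these coordinates and copies are those of GRCm38.

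The first 60 bases of COX2, ATP6 and ND3 are shown to let a reader see how close these copies are, and those of CYTB (from its base 2) and ND6 to show copies that can be told apart. Letters are 5′ to 3′ along the mRNA, and capitals mark bases at which gene and copy differ. On GRCm38, the windows of COX2 and its copy Gm28661 are chrM:7013-7072, plus strand, and chr1:24615506-24615565, minus strand. Those of ATP6 and Gm10925 are chrM:7927-7986, plus strand, and chr1:24614592-24614651, minus strand. For ND3 and Gm28438 they are chrM:9459-9518, plus strand, and chr1:24613060-24613119, minus strand. For CYTB and Gm11410 they are chrM:14146-14205, plus strand, and chr4:80003990-80004049, plus strand. ND6, the only gene here that is read from the opposite strand, has chrM:14011-14070, minus strand, and its copy Gm11408 chr4:80003855-80003914, minus strand.
COX2: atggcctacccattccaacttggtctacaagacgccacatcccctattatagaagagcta
Gm28661: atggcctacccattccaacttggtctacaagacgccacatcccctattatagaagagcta
ATP6: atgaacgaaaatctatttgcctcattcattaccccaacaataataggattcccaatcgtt
Gm10925: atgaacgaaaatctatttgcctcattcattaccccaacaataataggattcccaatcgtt
ND3: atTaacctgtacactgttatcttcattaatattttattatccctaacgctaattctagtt
Gm28438: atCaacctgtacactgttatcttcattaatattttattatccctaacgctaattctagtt
CYTB: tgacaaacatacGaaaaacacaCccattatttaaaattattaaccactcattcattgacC
Gm11410: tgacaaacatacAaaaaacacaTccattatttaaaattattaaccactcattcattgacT
ND6: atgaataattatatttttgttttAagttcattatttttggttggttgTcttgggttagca
Gm11408: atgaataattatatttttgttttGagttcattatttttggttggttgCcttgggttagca
COX2 and ATP6 did not differ from their copies in the window, nor over the 681 and 678 aligned bases. ND3 and its copy differed over their 345 aligned bases by T3C alone (the gene's base, the position from the start of the mRNA, then the copy's base). CYTB differed at 3 and ND6 at 2 positions of the window, and their longest exact runs shared with a copy were 47 and 39 bases.

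The rows inside near-exact copies were the rows with low values. FPKM, which divides a count by gene length and library total and so allows levels to be compared between genes, averaged 13566 ± 2986 (SD, n = 4) for COX1 and 10552 ± 3451 for CYTB in flox/flox livers, but 89.4 ± 32.7 for COX2, 79.9 ± 19.96 for COX3, 62.5 ± 21.5 for ATP6, 25.1 ± 11.8 for ND3 and 24.6 ± 7.71 for ND4L. The exceptions, by annotated copies alone, were ND6, at 100.1 ± 41.1 without a near-exact copy, and ATP8, at 8.55 ± 4.93 with a copy of its end. Unannotated copies were not searched. ND4, of which 63.6% lies in a copy, still reached 3569 ± 1221. The rows of ND1, ND2, ND4, ND5, CYTB and COX1 together held 99.4% to 99.6% of all mitochondrially encoded counts in every liver. How reads matching several places were counted is not given in the sources used here, and its part in these levels was not tested, so levels of the 5 copied genes and ATP8 are uncertain, and their differences rest on fewer counts.

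**Figure D1:**
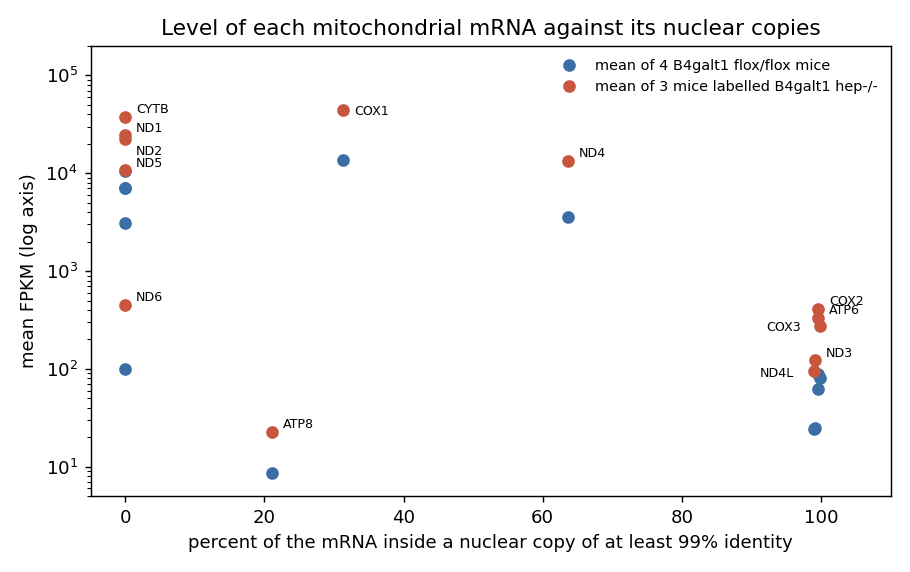
Mean FPKM (log axis) of each of the 13 mitochondrially encoded genes against the percent of its sequence that lies in an annotated nuclear copy of at least 99% identity, with blue points for the mean of 4 B4galt1 flox/flox livers and red points for the mean of 3 livers labelled B4galt1 hep-/-. COX2, COX3, ATP6, ND3 and ND4L, at 99% or more, sit far below COX1, CYTB, ND1, ND2, ND4 and ND5, and ND6 and ATP8 are low without being so covered by annotated copies.

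Complex I takes 7 of its subunits from mitochondrial DNA, all of them in the proton-pumping membrane arm, and all 7 were called higher. ND1, beside the coenzyme Q site, stood at 5295, 7071, 4104 and 10096 CPM in flox/flox replicates 1 to 4 and at 30455, 22656 and 20157 CPM in labelled hep-/- replicates 1 to 3 (log2 fold change 1.88 ± 0.33 (SE), adjusted p = 0.00666, edgeR). ND5, at the far end of the arm, stood at 5085, 5548, 3215 and 8415 CPM and at 23110.1, 22368 and 15122 CPM in the same order (1.86 ± 0.33, adjusted p = 0.00691). Every labelled hep-/- liver was above every flox/flox liver for both genes, and flox/flox replicate 4 was the highest and replicate 3 the lowest of the controls. ND2 and ND4, further antiporter-like subunits, had changes on the log2 scale of 1.75 ± 0.38, adjusted p = 0.0136, and 1.998 ± 0.34, adjusted p = 0.00581.

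ND6 is the exception in its strand, the only gene of the 13 encoded on the light strand. It stood at 39.9, 43.5, 32.6 and 89.0 CPM in flox/flox and at 353, 236 and 145 CPM in labelled hep-/- livers, again without overlap (log2 fold change 2.26 ± 0.37 (SE), adjusted p = 0.00501, edgeR). ND6 overlaps ND5 by 14 bases on the opposite strand, and whether counting used strand is not given in the sources used here. The ratio of ND6 to ND5 counts was 0.00785 to 0.0106 in flox/flox and 0.00960 to 0.0153 in labelled hep-/- livers, ranges that overlapped. ND3 and ND4L, the small copied rows, rose from 4.39, 7.20, 7.52 and 15.6 CPM to 61.5, 47.6 and 23.6 CPM and from 5.08, 9.61, 4.57 and 9.44 CPM to 41.8, 24.8 and 22.4 CPM, with log2 fold changes of 2.35 ± 0.40, adjusted p = 0.00581, and 2.05 ± 0.32, adjusted p = 0.00396.

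CYTB, the cytochrome b of complex III and its sole mitochondrial subunit, stood at 9355, 12335, 7325 and 18499 CPM in flox/flox and at 55250.4, 43411 and 36372 CPM in labelled hep-/- livers (log2 fold change 1.92 ± 0.35 (SE), adjusted p = 0.00704, edgeR). The groups did not overlap. COX1, the catalytic subunit of complex IV that carries its heme and copper centre, stood at 18479, 20659, 14215 and 28478 CPM and 84095, 70957 and 59869.8 CPM (1.81 ± 0.31, adjusted p = 0.00602). COX2, which receives electrons from cytochrome c, went from 42.3, 64.1, 37.7 and 97.6 CPM to 424, 225 and 243 CPM (2.30 ± 0.34, adjusted p = 0.00372). COX3, the remaining core subunit, went from 67.7, 66.3, 37.5 and 70.7 CPM to 303, 204 and 172 CPM (1.90 ± 0.27, adjusted p = 0.00301). In all 3 COX genes the labelled hep-/- livers lay above the controls, with replicate 1 highest.

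ATP6, the proton channel subunit of complex V, stood at 27.1, 46.9, 28.6 and 65.5 CPM in flox/flox and at 310.0, 268 and 127 CPM in labelled hep-/- livers (log2 fold change 2.48 ± 0.36 (SE), adjusted p = 0.00352, edgeR). It had the largest log2 fold change of the 13. ATP8, a small subunit of the same membrane part, was the only one not called. Its values were 2.51, 0.703, 1.03 and 2.46 CPM and 5.88, 6.27 and 2.17 CPM (1.51 ± 0.50, adjusted p = 0.0606), with labelled hep-/- replicate 3 inside the control range. Without flox/flox replicate 1 ATP8 passed the test at a log2 fold change of 1.78 (adjusted p = 0.0465, edgeR), and without labelled hep-/- replicate 3 at 1.85 (adjusted p = 0.0336). From all livers it was called by DESeq2 (1.53, adjusted p = 0.0139) and with voom weights (1.95, adjusted p = 0.0164).

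**Figure D2:**
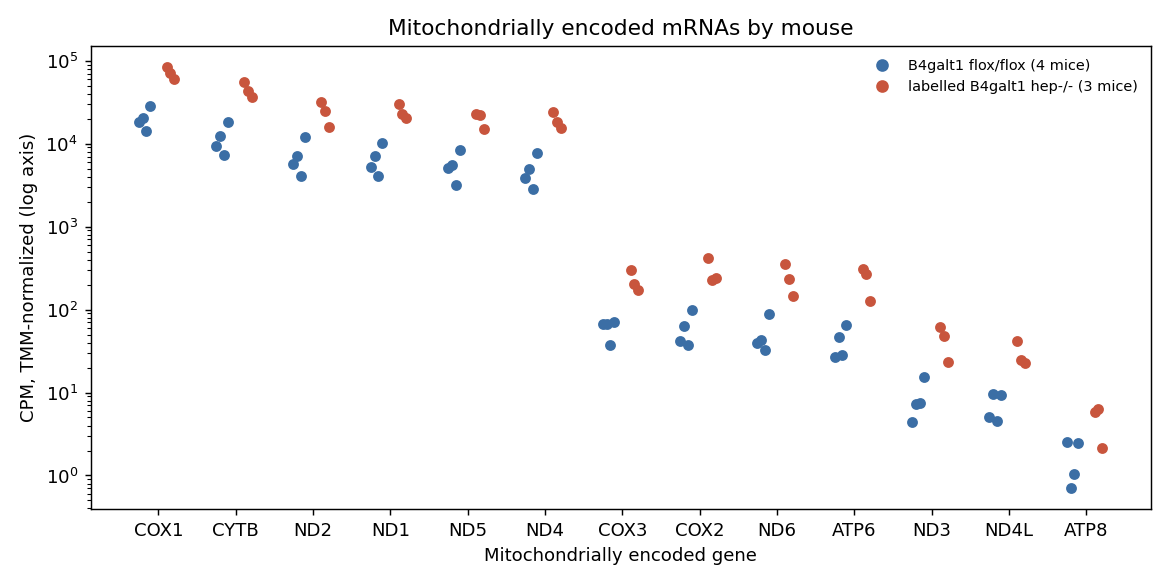
TMM-normalized CPM (log axis) of the 13 mitochondrially encoded genes, 1 point per liver, blue for the 4 B4galt1 flox/flox and red for the 3 labelled B4galt1 hep-/- livers. The red points lie above the blue points for every gene but ATP8, where the lowest red point (2.17 CPM) is within the blue range, and heights are to be compared within a gene because CPM is not corrected for gene length.

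Among all tested genes, 28.6% had groups that did not overlap, 13.6% with every labelled hep-/- liver above and 15% with every one below, against 12 of 13 mitochondrially encoded genes above. The 13 genes together took 5.47, 5.83, 3.88 and 7.996% of counts in flox/flox and 22.6, 22.1 and 14.4% in labelled hep-/- livers. These shares were precise to 0.0147 percentage points by the 95% Wilson interval, which covers counting error only. Within the mitochondrial counts the shares of most genes overlapped between groups, with COX1 at 33.3 to 39.6% in flox/flox and 33.6 to 36.5% in labelled hep-/- livers, and CYTB at 19.5 to 21.6% and 21.3 to 22.2%. ND4 was the only gene whose share did not overlap, at 8.02 to 8.94% and 9.07 to 9.55%. With normalization factors from nuclear genes alone, the 12 calls stood and the median log2 fold change was 1.92, and over the 7 genes left after ATP8 and the 5 that lie at least 99% in a copy were taken out, a choice made after seeing the data, it was 1.88. Labelled hep-/- replicate 3, in which B4galt1 was not lower, had the lowest share of its group, and without it 13 genes were called and the median was 2.06.

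The nuclear subunit genes took 1.35, 1.34, 1.47 and 1.54% of all counts in flox/flox and 1.25, 1.05 and 1.33% in labelled hep-/- livers, so that every labelled liver was lower. When the mitochondrially encoded counts were left out of the total, the shares were 1.42, 1.43, 1.53 and 1.68% and 1.62, 1.35 and 1.56%, and the groups overlapped. Their median log2 fold change of 0.09 fell to -0.04 with library totals in place of TMM factors, and to -0.05 and -0.06 with limma on log2(FPKM + 1) and log2(FPKM + 0.1), settings in which the median of all genes also moved, to -0.10, -0.14 and -0.18. It was -0.02 without labelled hep-/- replicate 1 and -0.06 without replicate 3. Relative to the median of all genes, the nuclear median was 0.07 in the fit of all livers and 0.06, 0.09 and 0.12 under these scalings, but -0.02 and -0.08 without labelled hep-/- replicates 1 and 3 and -0.0025 without flox/flox replicate 3, so its direction depends on which liver is left out, whereas the mitochondrially encoded median on that scale stayed from 1.71 to 2.22 over all settings tried. Normalizing on nuclear genes alone gave 4 nuclear genes higher and 9 lower, where 16% of all genes were called, 8.06% higher and 7.95% lower.

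Ratios within each liver compare the origins without any scaling between libraries. In complex I the median FPKM of the mitochondrial genes was 32.2, 34.0, 19.2 and 40.6 times that of the nuclear genes in flox/flox livers and 109.6, 152 and 72.0 times in labelled hep-/- livers. The complex III ratio, of CYTB to the nuclear median, was 48.2, 50.1, 32.2 and 51.4 against 167, 187 and 102. Complex IV gave 0.532, 0.429, 0.263 and 0.492 against 1.91, 1.62 and 1.14, and complex V 0.150, 0.177, 0.108 and 0.211 against 1.22, 1.64 and 0.369. No complex showed overlap between the groups, and the ratio of the group means was 3.53, 3.34, 3.63 and 6.66 for complexes I, III, IV and V. The low ratios of complexes IV and V rest on COX2, COX3, ATP6 and ATP8, whose levels are uncertain. On the log2 fold change scale, the mitochondrial median exceeded the nuclear median by 1.72, 1.94, 1.65 and 2.08 in the same complexes.

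**Figure D3:**
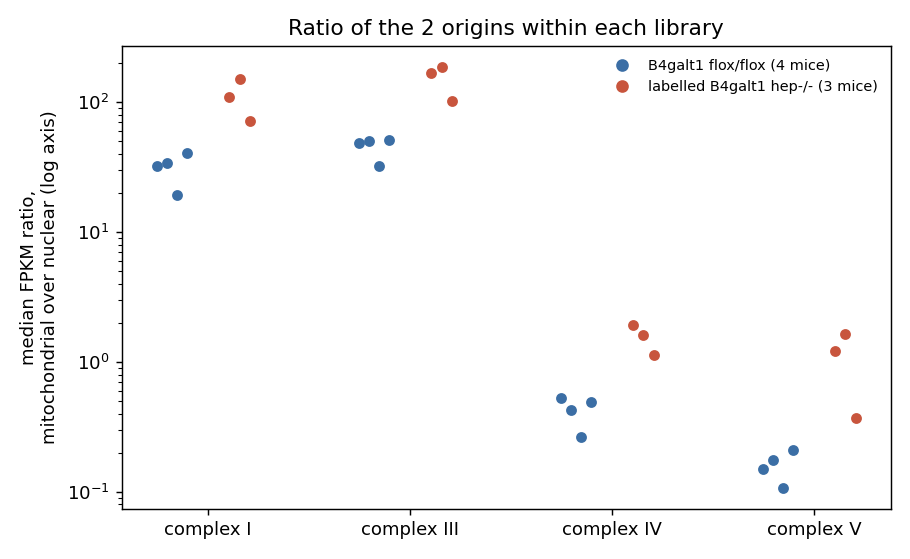
Median FPKM of the mitochondrially encoded genes of a complex divided by that of its nuclear genes (log axis), 1 point per liver, blue for 4 B4galt1 flox/flox and red for 3 labelled B4galt1 hep-/- livers. All red points lie above all blue points in complexes I, III, IV and V, with the smallest gap in complex V (0.211 against 0.369), and the height of complexes IV and V is set by the low rows of COX2, COX3, ATP6 and ATP8.

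Pairs of single genes, none of them among the 5 copied rows, gave the same order of groups. FPKM of COX1 over that of Cox4i1, the regulatory nuclear subunit of complex IV, was 22.1, 22.9, 14.1 and 24.0 in flox/flox and 80.3, 100.1 and 56.2 in labelled hep-/- livers. CYTB over Cyc1, the cytochrome c1 with which it works in complex III, was 72.6, 94.5, 60.5 and 136 and 569, 527 and 255. ND1 over Ndufs1, an iron-sulfur subunit of complex I, was 211, 211, 121 and 358 and 1703, 1516 and 873. Each pair had every labelled hep-/- liver above every flox/flox liver, with labelled replicate 3 the lowest of its group.

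Of the 39 nuclear genes of complex I, 3 were called higher and 2 lower, and the median on the log2 scale was 0.28. The called-lower genes are part of the arm that takes electrons from NADH. Ndufv1, the flavoprotein that binds NADH, stood at 139, 136, 152 and 144 CPM in flox/flox and at 73.2, 61.3 and 92.9 CPM in labelled hep-/- livers (log2 fold change -0.91 ± 0.20 (SE), adjusted p = 0.0128, edgeR). Ndufs1, which carries iron-sulfur clusters next to it, stood at 96.0, 128, 129.9 and 108 CPM and 68.3, 57.1 and 88.2 CPM (-0.70 ± 0.21, adjusted p = 0.0445). All labelled livers were below all controls for both. Ndufv1 kept its call with each liver left out, whereas Ndufs1 lost it without flox/flox replicates 2, 3 or 4 or without labelled hep-/- replicates 1 or 2 in turn (log2 fold change -0.56 to -0.73, adjusted p 0.0714 to 0.122).

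The genes called higher encode accessory subunits. Ndufa5, of the arm near the coenzyme Q site, stood at 44.9, 46.3, 47.8 and 91.5 CPM in flox/flox and 152, 102 and 116 CPM in labelled hep-/- livers (log2 fold change 1.10 ± 0.27 (SE), adjusted p = 0.0226, edgeR). Ndufb4, of the membrane arm, stood at 47.9, 61.9, 62.9 and 83.7 CPM and 141, 87.2 and 96.1 CPM (0.76 ± 0.24, adjusted p = 0.0492). Ndufb7, also of the membrane arm, stood at 64.3, 73.1, 64.3 and 109.5 CPM and 144, 119 and 124 CPM (0.73 ± 0.22, adjusted p = 0.0457). In all 3 the labelled livers lay above the controls and flox/flox replicate 4 was the highest control. Ndufa5 lost its call without flox/flox replicates 2 or 3 or without labelled hep-/- replicate 1 in turn (log2 fold change 0.91 to 1.01, adjusted p 0.05996 to 0.0739). Ndufb4 lost it without flox/flox replicates 1, 2 or 3 or without labelled hep-/- replicates 1 or 3 in turn (log2 fold change 0.50 to 0.83, adjusted p 0.0642 to 0.175), and Ndufb7 without flox/flox replicates 1, 2 or 3 or without labelled hep-/- replicates 1, 2 or 3 in turn (log2 fold change 0.63 to 0.78, adjusted p 0.0632 to 0.125). Ndufb4 has close relatives, Ndufb4b and Ndufb4c, counted at 0.552 to 2.53 CPM, and reads shared among them could be split.

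Further core subunits of complex I did not pass the test. Ndufs3, of the arm that faces the matrix, gave log2 fold change 0.08 ± 0.21 (SE), adjusted p = 0.812, and Ndufs7, which hands electrons to coenzyme Q, 0.38 ± 0.20, adjusted p = 0.205. For the iron-sulfur subunits Ndufs8 and Ndufv2 the values were 0.35 ± 0.18, adjusted p = 0.189, and 0.35 ± 0.23, adjusted p = 0.313. Ndufv1 and Ndufv2 form a pair in the complex, and the ratio of their FPKM was 1.41, 0.946, 1.14 and 0.821 in flox/flox and 0.370, 0.454 and 0.475 in labelled hep-/- livers. This ratio, chosen after the values were seen, did not overlap between groups.

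Complex II, succinate dehydrogenase, had 2 of its 4 genes called lower and a median on the log2 scale of -0.53. Sdha, the flavoprotein that oxidizes succinate, stood at 332, 382, 419 and 358 CPM in flox/flox and at 132, 88.4 and 225 CPM in labelled hep-/- livers (log2 fold change -1.33 ± 0.29 (SE), adjusted p = 0.0141, edgeR). It had the lowest log2 fold change of the 86 nuclear genes and kept its call with each liver left out. Sdhd, a membrane anchor, stood at 171, 209.9, 214 and 231 CPM and 114, 68.1 and 150.3 CPM (-0.90 ± 0.26, adjusted p = 0.0386), and the groups did not overlap in either gene. Sdhd lost its call without flox/flox replicates 2, 3 or 4 or without labelled hep-/- replicates 1 or 2 in turn (log2 fold change -0.65 to -0.94, adjusted p 0.0722 to 0.0889). The iron-sulfur subunit Sdhb and the other anchor Sdhc did not pass, at -0.15 ± 0.22, adjusted p = 0.668, and -0.17 ± 0.22, adjusted p = 0.638. The FPKM of Sdha relative to that of Sdhb, a ratio also chosen after the values were seen, was 0.753, 0.819, 0.892 and 0.599 in flox/flox and 0.315, 0.250 and 0.3996 in labelled livers.

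In complex III, 1 of 9 nuclear genes was called higher and 1 lower, and the median on the log2 scale was -0.02. Uqcrb, an accessory subunit at the coenzyme Q site, stood at 103, 143, 122 and 186 CPM in flox/flox and at 277, 183 and 251 CPM in labelled hep-/- livers (log2 fold change 0.78 ± 0.24 (SE), adjusted p = 0.0475, edgeR), with labelled replicate 2 just below flox/flox replicate 4. Uqcrc1, a large subunit that faces the matrix, stood at 213, 221, 227 and 229 CPM and 130.3, 116 and 172 CPM (-0.67 ± 0.20, adjusted p = 0.0407), without overlap. Uqcrb lost its call without flox/flox replicates 1, 2 or 3 or without labelled hep-/- replicates 1 or 3 in turn (log2 fold change 0.63 to 0.79, adjusted p 0.0922 to 0.136), and Uqcrc1 without flox/flox replicates 1, 2, 3 or 4 or without labelled hep-/- replicates 1 or 2 in turn (log2 fold change -0.55 to -0.69, adjusted p 0.0568 to 0.105). Uqcrc1 also lost it when genes with at least 1 count in any mouse were tested (adjusted p = 0.0509). Among the electron carriers, Cyc1 had a change on the log2 scale of -0.26 ± 0.22, adjusted p = 0.421, and the Rieske iron-sulfur protein Uqcrfs1 0.21 ± 0.25, adjusted p = 0.592, so neither passed.

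Complex IV had 1 of 17 tested nuclear genes called, Cox7a2l, and a median on the log2 scale of 0.25. Cox7a2l is classed as a factor for supercomplexes of complexes III and IV, and whether it acts so in this mouse strain was not examined. Its mRNA stood at 87.6, 102, 138 and 105 CPM in flox/flox and at 54.1, 34.6 and 80.4 CPM in labelled hep-/- livers (log2 fold change -0.94 ± 0.28 (SE), adjusted p = 0.0410, edgeR). The labelled livers were all lower, and the call was lost without flox/flox replicates 2, 3 or 4 or without labelled hep-/- replicates 1 or 2 in turn (log2 fold change -0.69 to -0.98, adjusted p 0.0714 to 0.1003). Cox5a came close, with 135, 148, 149 and 199.9 CPM and 71.7, 43.5 and 124 CPM (-0.99 ± 0.31, adjusted p = 0.0520). Its groups did not overlap, and with normalization on nuclear genes it was called lower. Cox7c came as close in the other direction, with 181, 205, 214 and 334 CPM and 479.7, 309 and 415 CPM (0.78 ± 0.25, adjusted p = 0.0550), and its groups overlapped.

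Several complex IV subunits come in tissue isoforms, and the forms used widely outside muscle were the ones measured. Cox4i1 had a change on the log2 scale of -0.07 ± 0.22, adjusted p = 0.865, Cox6a1 -0.02 ± 0.22, adjusted p = 0.958, Cox7a2 -0.49 ± 0.27, adjusted p = 0.225 and Cox8a -0.04 ± 0.23, adjusted p = 0.913. Their counterparts were hardly counted: Cox4i2 stood at 0 to 0.428 CPM and Cox6a2 at 0.0753 to 0.543 CPM, and Cox7a1 at 0.736 to 1.46 CPM, where 3 counts amount to 0.0690 to 0.0987 CPM. Cox8b, at 0 to 0.332 CPM, was not tested. No isoform passed edgeR's test. Cox7a2 passed with limma on log2(FPKM + 1) and log2(FPKM + 0.1), at -0.66 (adjusted p = 0.0389) and -0.67 (adjusted p = 0.0382).

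Complex V had 2 of 17 nuclear genes called, both lower, and the median on the log2 scale was -0.08. The called genes encode the subunits that form the catalytic hexamer of the ATP synthase head. Atp5b, the catalytic beta subunit, stood at 938, 1143, 1250.2 and 949 CPM in flox/flox and at 388, 265 and 666 CPM in labelled hep-/- livers (log2 fold change -1.28 ± 0.30 (SE), adjusted p = 0.0184, edgeR). Atp5a1, the alpha subunit, stood at 882, 1036, 1050.2 and 1005 CPM and 465, 323 and 675 CPM (-1.03 ± 0.26, adjusted p = 0.0246). Neither gene's groups overlapped, and labelled replicate 2 was the lowest liver for both. Atp5b lost its call without flox/flox replicate 2 or without labelled hep-/- replicate 1 in turn (log2 fold change -1.22 to -1.26, adjusted p 0.0515 to 0.0528), and Atp5a1 without flox/flox replicates 2 or 3 or without labelled hep-/- replicates 1 or 2 in turn (log2 fold change -0.80 to -1.01, adjusted p 0.0520 to 0.0657).

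Other parts of complex V had no called gene. Atp5h, of the peripheral stalk, stood at 154, 155, 173 and 231 CPM and 292, 237 and 267 CPM (0.57 ± 0.21, adjusted p = 0.0783), not called although every labelled hep-/- liver was above the controls. The FPKM of Atp5b relative to that of Atp5h, chosen after the values were seen, was 2.45, 2.98, 2.92 and 1.66 in flox/flox and 0.535, 0.451 and 1.01 in labelled livers. The membrane ring is made from a peptide that 3 genes encode identically after import, and their log2 fold changes were 0.16 ± 0.21, adjusted p = 0.635 for Atp5g1, -0.16 ± 0.25, adjusted p = 0.684 for Atp5g2 and -0.42 ± 0.27, adjusted p = 0.2997 for Atp5g3. Atp5g3 took 49.2 to 56.1% of their summed FPKM in flox/flox and 40.5 to 48.3% in labelled livers (also chosen after the values were seen), and Atp5g1 took 18.6 to 23.1% and 24.8 to 33.9%.

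**Figure D4:**
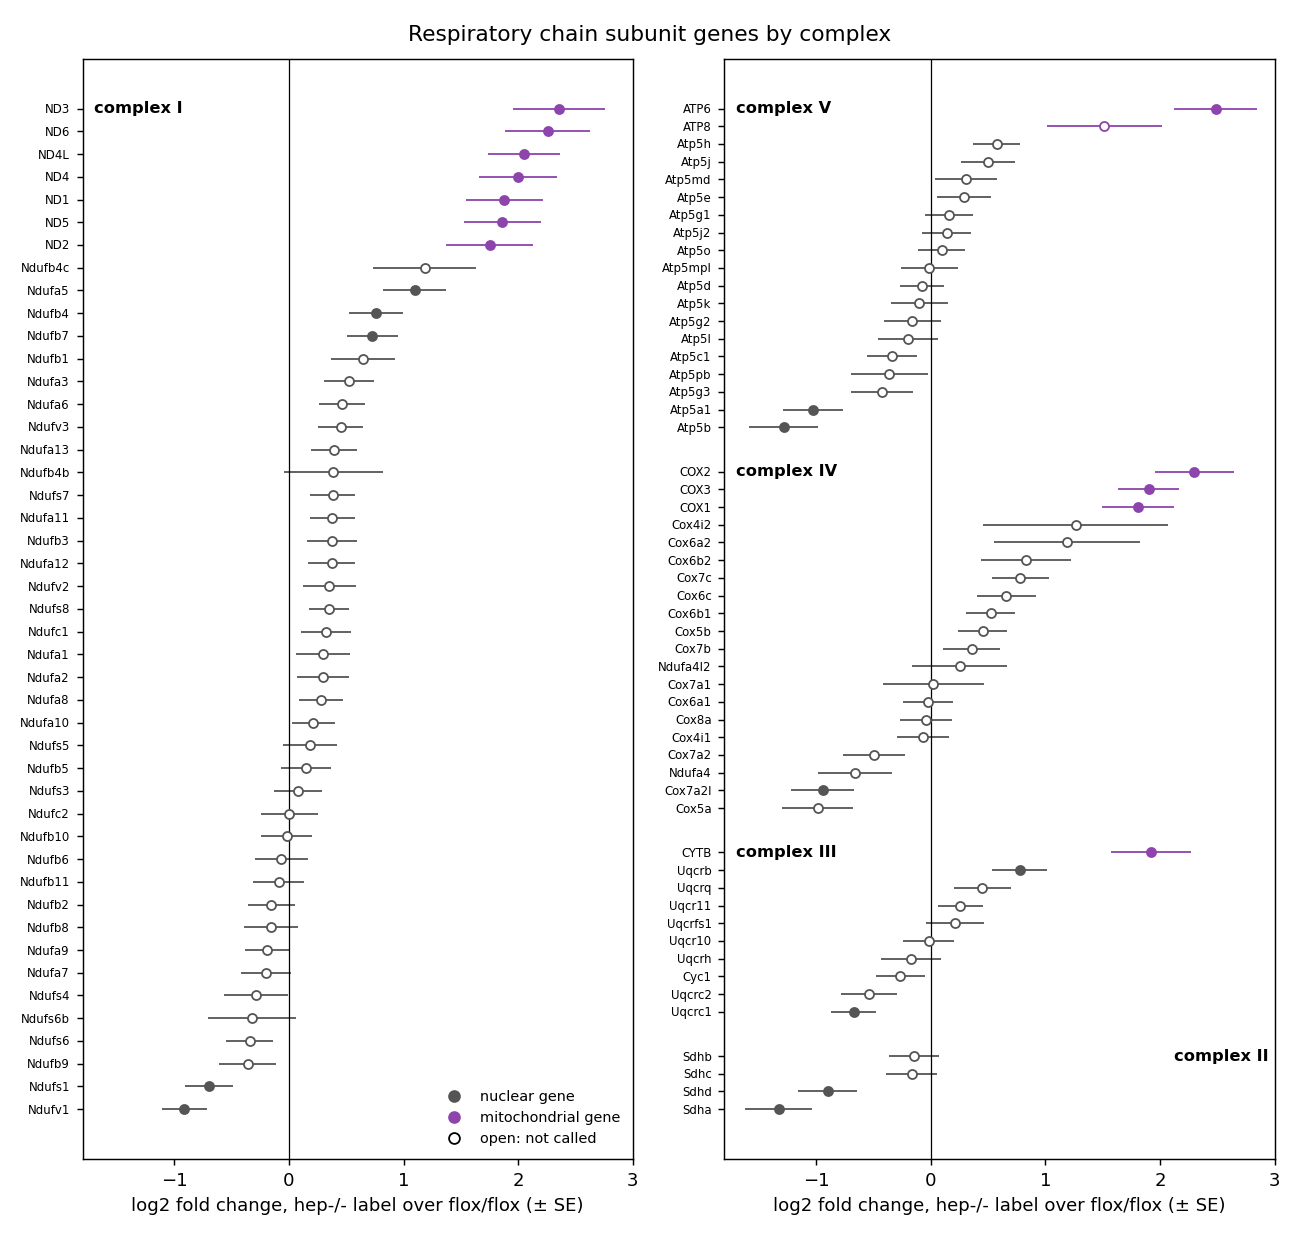
Log2 fold change of livers labelled B4galt1 hep-/- (3) over B4galt1 flox/flox (4) with its standard error, for the tested subunit genes reported here, by complex, with purple points for mitochondrially encoded and grey points for nuclear genes, filled where the gene was called. The purple points lie from 1.51 to 2.48, while the grey points spread on both sides of 0, with Sdha (-1.33) and Atp5b (-1.28) lowest.

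The nuclear count was sensitive to which livers were used. With 12 genes called from all 7 livers, it was 2 without flox/flox replicate 2, 3 without flox/flox replicate 3 and 2 without labelled hep-/- replicate 1, fits in which 5.9%, 9.36% and 11.7% of all genes were called. It was 8 without flox/flox replicate 1 or labelled hep-/- replicate 2, and 10 without flox/flox replicate 4 or labelled hep-/- replicate 3, where 16.1%, 7.76%, 10.3% and 13.8% of all genes were called in that order. The balance of 4 higher and 8 lower moved as well, to 6 higher and 4 lower without flox/flox replicate 4, 5 and 3 without labelled hep-/- replicate 2, 1 and 7 without flox/flox replicate 1 and 1 and 9 without labelled hep-/- replicate 3. In the fits without flox/flox replicate 2, flox/flox replicate 3 or labelled hep-/- replicate 1, 0 were higher. The count of mitochondrially encoded genes was 12 or 13 in each of these fits. By function, the 15 nuclear core subunits, those that carry out electron transfer or ATP synthesis, had 6 called lower, 0 higher and a median on the log2 scale of -0.26, and the 71 other tested subunits had 4 higher, 2 lower and a median of 0.16. Over all tested genes, 7.83% were called lower and 8% higher. Of the core genes called lower, Atp5a1, Atp5b, Ndufs1 and Sdhd each lost their call in some fit with 1 liver left out. The difference between core and other subunits was not tested.

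Long and short nuclear subunit genes differed in direction. Over the 86 genes, log2 fold change and gene length, taken as the length behind the FPKM values, had Spearman's rho of -0.45 and a Pearson correlation with log2 length of -0.50, against 0.05 and 0.04 over all 15179 genes, which share libraries and are not independent. The 38 members under 700 nt had a median log2 fold change of 0.29, with 4 called higher and 0 lower, and the 426 tested genes of that length had 0.30, with 61 higher and 10 lower. The 21 members of 700 to 1200 nt had 0.15, with 0 higher and 1 lower, against 0.07 for the 958 genes of that length, with 72 higher and 67 lower. The 27 members of 1200 nt or more had -0.28, with 0 higher and 7 lower, against 0.01 for 13795 genes, with 1082 higher and 1112 lower. Among genes with a mean of at least 20 CPM, the medians were 0.19, -0.016 and -0.14 in the same order of length. Called-higher members had a median length of 540.5 nt and called-lower members of 1767.5 nt. Atp5b, Atp5a1, Sdha, Ndufv1 and Ndufs1 are among the long genes, and the part of length in these values was not tested.

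**Figure D5:**
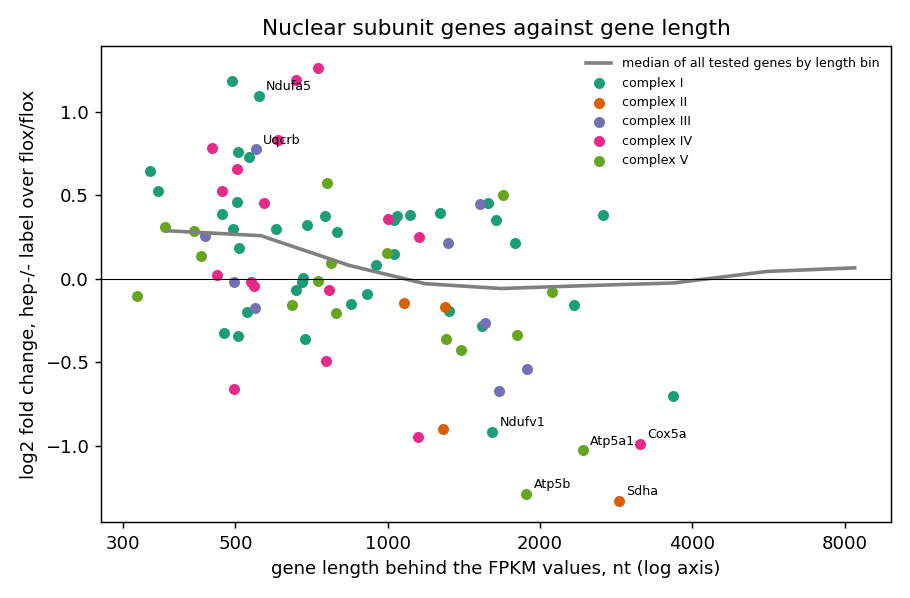
Log2 fold change of livers labelled B4galt1 hep-/- over B4galt1 flox/flox against gene length (log axis, nt), 1 point per nuclear subunit gene reported here, coloured by complex, with a grey line for the median of all tested genes in length bins holding at least 20 genes. Below 700 nt the members (median 0.29) lie around the line, and from 1200 nt on their median (-0.28) is below it.

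The promoters of nuclear subunit genes are known to hold sites for NRF1, GABP, YY1 and the estrogen-related receptor alpha, so these were counted. RefSeq promoters (build GRCm38.p6, from 250 bases before to 50 after the start) were found for 69 of the 87 nuclear members. On either strand, the palindromic NRF1 consensus of 10 letters was in 5 of them (7.25%), CCGGAAG (GABP) in 17 (24.6%), AAGATGGC (YY1) in 10 (14.5%) and AAGGTCA (estrogen-related receptor alpha) in 8 (11.6%). Among all 27025 genes with a promoter the shares were 1.07%, 9.93%, 3.19% and 5.38%. Of the called genes, 3 higher and 6 lower had a promoter: NRF1 letters were in 0 and 1 of these, GABP letters in 1 and 1, YY1 letters in 0 and 0, and those of the receptor in 1 and 1. The promoter of Uqcrc1, called lower, and that of Ndufb7, called higher, are shown as examples of the NRF1 and GABP letters, which stand in capitals (5′ to 3′ along each gene, chr9:108936398-108936697 and chr8:83566508-83566807, both plus strand).
Uqcrc1 promoter: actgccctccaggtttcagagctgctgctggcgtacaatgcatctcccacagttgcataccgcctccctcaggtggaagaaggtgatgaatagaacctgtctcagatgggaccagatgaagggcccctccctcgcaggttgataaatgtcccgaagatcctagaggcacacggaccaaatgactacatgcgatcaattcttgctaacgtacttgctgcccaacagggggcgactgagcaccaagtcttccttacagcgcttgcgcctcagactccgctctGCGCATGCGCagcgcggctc
Ndufb7 promoter: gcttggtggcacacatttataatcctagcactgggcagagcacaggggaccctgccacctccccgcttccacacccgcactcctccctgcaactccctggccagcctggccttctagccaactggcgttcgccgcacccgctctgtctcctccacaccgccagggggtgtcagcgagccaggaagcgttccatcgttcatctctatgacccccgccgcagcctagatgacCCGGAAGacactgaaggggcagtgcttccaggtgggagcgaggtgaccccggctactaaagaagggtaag
A match is a match of letters and not a measured binding site.

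Among the regulators of mitochondrial biogenesis, 1 of 19 was called higher and 1 lower, 10.5% against 15.8% of all tested genes. Gabpb1, a subunit of GABP, stood at 7.38, 7.40, 6.65 and 8.59 CPM in flox/flox and 12.6, 16.5 and 16.2 CPM in labelled hep-/- livers (log2 fold change 1.01 ± 0.20 (SE), adjusted p = 0.0102, edgeR), and Prkaa2, a catalytic subunit of AMP-activated kinase, at 34.7, 49.9, 49.1 and 46.4 CPM and 22.9, 14.7 and 26.6 CPM (-1.07 ± 0.23, adjusted p = 0.0133). Neither overlapped between groups. Ppargc1a, the coactivator PGC-1alpha, had 0.41 ± 0.26, adjusted p = 0.301, Nrf1 0.57 ± 0.23, adjusted p = 0.117 and Esrra 0.33 ± 0.21, adjusted p = 0.309.

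For the machinery that expresses mitochondrial DNA, 5.56% of maintenance and 33.3% of transcription genes were called, against 15.8% of all tested genes. Of 18 maintenance genes, 1 was higher, Ssbp1, the single-stranded DNA binding protein (22.1, 25.0, 18.1 and 28.7 CPM against 48.3, 53.4 and 35.1 CPM, log2 fold change 0.96 ± 0.21 (SE), adjusted p = 0.0143, edgeR). Tfam, which packages mitochondrial DNA and starts its transcription, had -0.56 ± 0.20, adjusted p = 0.0792. Every labelled hep-/- liver was below the controls, and without flox/flox replicate 1 Tfam passed the test (-0.66, adjusted p = 0.0496). It also passed with library totals (-0.68, adjusted p = 0.0211), with limma on both FPKM scales (-0.61 and -0.67, adjusted p = 0.0160 and 0.0154) and with voom weights (-0.59, adjusted p = 0.0387). The mitochondrial DNA polymerase Polg and the helicase Twnk had 0.43 ± 0.17, adjusted p = 0.109, and 0.24 ± 0.17, adjusted p = 0.345. Of 9 transcription genes, 2 were higher and 1 lower. Mterf3, a negative regulator of transcription, stood at 14.9, 21.3, 19.3 and 21.8 CPM and 39.6, 39.2 and 47.9 CPM (1.13 ± 0.19, adjusted p = 0.00540). Mterf1a, a termination factor, was low in all livers, at 1.59, 1.66, 1.62 and 2.26 CPM and 5.78, 7.18 and 4.31 CPM (1.69 ± 0.30, adjusted p = 0.00679), and had 0.73 on log2(FPKM + 1) with limma, where it was still called. Tefm, the elongation factor, stood at 11.3, 12.6, 13.7 and 15.7 CPM and 7.60, 4.34 and 8.55 CPM (-0.96 ± 0.26, adjusted p = 0.0303), a call lost without flox/flox replicates 2, 3 or 4 or without labelled hep-/- replicate 2 in turn (log2 fold change -0.72 to -0.99, adjusted p 0.0588 to 0.0794). The polymerase gene Polrmt had 0.57 ± 0.26, adjusted p = 0.142, and Tfb2m 0.15 ± 0.22, adjusted p = 0.660.

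Of 33 genes for processing and stability of mitochondrial RNA, 2 were higher (Fastk and Fastkd1) and 1 lower (Ptcd2), 9.09% against 15.8% of all tested genes. Fastk, which stabilizes ND6 RNA, lost its call without flox/flox replicates 2, 3 or 4 or without labelled hep-/- replicates 1, 2 or 3 in turn (log2 fold change 0.64 to 0.93, adjusted p 0.0503 to 0.139). Fastkd1 lost it without flox/flox replicates 1, 2, 3 or 4 or without labelled hep-/- replicates 2 or 3 in turn (log2 fold change 0.46 to 0.76, adjusted p 0.0534 to 0.159), and Ptcd2, of CYTB processing, without flox/flox replicates 2 or 4 or without labelled hep-/- replicate 2 in turn (log2 fold change -0.63 to -0.75, adjusted p 0.0508 to 0.0715). With library totals and limma on both FPKM scales, Fastk (adjusted p 0.0840 to 0.108) and Fastkd1 (adjusted p 0.0945 to 0.1001) were not called either. Lrpprc and Slirp, partners that stabilize the heavy-strand mRNAs, had -0.34 ± 0.18, adjusted p = 0.209, and 0.48 ± 0.24, adjusted p = 0.181. Of 15 translation factors, edgeR called 4 lower and 0 higher (26.7%), against 7.83% lower and 8% higher of all tested genes. DESeq2 called 5 lower and 1 higher, where 21.5% of all genes were called. Taco1, which activates translation of COX1, stood at 12.9, 17.1, 15.6 and 9.75 CPM and 4.77, 5.25 and 5.39 CPM (log2 fold change -1.43 ± 0.24 (SE), adjusted p = 0.00581, edgeR), and the elongation factor Tufm at 71.1, 91.3, 79.5 and 75.4 CPM and 33.5, 27.2 and 51.9 CPM (-1.08 ± 0.23, adjusted p = 0.0132). The elongation factor Gfm1 was also lower, a call lost without flox/flox replicates 2 or 3 or without labelled hep-/- replicates 1 or 2 in turn (log2 fold change -0.93 to -1.19, adjusted p 0.0510 to 0.0688), and so was the release factor Mtrf1, lost without flox/flox replicates 2, 3 or 4 or without labelled hep-/- replicate 2 in turn (log2 fold change -0.96 to -1.27, adjusted p 0.0522 to 0.0839).

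Among assembly factors, edgeR called 5.26%, 0%, 11.1%, 16.7% and 16.7% for complexes I to V, against 15.8% of all tested genes. For coenzyme Q synthesis the share was 7.69%. Complex I had 1 lower of 19, Nubpl, which inserts iron-sulfur clusters (7.04, 10.7, 12.7 and 11.1 CPM against 3.08, 0.905 and 2.83 CPM, log2 fold change -2.19 ± 0.40 (SE), adjusted p = 0.00729, edgeR). Complex V had 1 lower of 6, Atpaf1, which binds the beta subunit before assembly (4.05, 5.85, 6.58 and 4.69 CPM against 1.66, 0.814 and 1.97 CPM, -1.84 ± 0.37, adjusted p = 0.00982). On log2(FPKM + 1) with limma, which understates the change of low genes, Atpaf1 had -1.16 and was still called. Complex IV had 2 higher and 2 lower of 24, with Cox20, a chaperone of COX2, at 19.1, 20.8, 18.8 and 36.6 CPM against 72.7, 54.6 and 49.6 CPM (1.31 ± 0.26, adjusted p = 0.00910), Cox15, of heme A synthesis, at -0.90 ± 0.19, adjusted p = 0.0111, and Taco1, also in this list. Pet100 was higher and lost its call without flox/flox replicates 1, 2 or 3 or without labelled hep-/- replicates 1 or 2 in turn (log2 fold change 0.61 to 1.03, adjusted p 0.0522 to 0.153), and with library totals (adjusted p = 0.0518). Complex III had 1 lower of 9, Uqcc1, lost without flox/flox replicates 2, 3 or 4 or without labelled hep-/- replicate 2 in turn (log2 fold change -0.54 to -0.69, adjusted p 0.0521 to 0.0902) and just short of the fold threshold with limma on log2(FPKM + 1) (-0.579), and complex II had 0 of 4 called by edgeR or DESeq2, with 0 at an unadjusted p under 0.05. In the synthesis of coenzyme Q, 1 of 13 was lower, Coq9, lost without flox/flox replicates 2, 3 or 4 or without labelled hep-/- replicates 1 or 2 in turn (log2 fold change -0.59 to -0.73, adjusted p 0.0576 to 0.0781). The assembly factors Ndufaf1 of complex I, Sdhaf2 of complex II, Bcs1l of complex III and Surf1 of complex IV had -0.37 ± 0.21, adjusted p = 0.237, 0.02 ± 0.18, adjusted p = 0.944, -0.36 ± 0.22, adjusted p = 0.274, and -0.10 ± 0.16, adjusted p = 0.689, and Coq2, of coenzyme Q synthesis, had -0.23 ± 0.16, adjusted p = 0.329.

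Other nuclear genes for mitochondrial proteins were listed as content markers, but mitochondrial content itself was not measured. Of these 28 genes, 6 were lower and 0 higher (21.4% called), against 7.83% lower and 8% higher of all tested genes. The median of the list on the log2 scale was -0.32. Timm23, of the import channel, stood at 38.4, 42.7, 41.2 and 33.5 CPM in flox/flox and 12.9, 8.29 and 17.1 CPM in labelled hep-/- livers (log2 fold change -1.61 ± 0.24 (SE), adjusted p = 0.00380, edgeR), and Hspa9, the import chaperone, at 463, 617, 554 and 587 CPM and 209, 145 and 335 CPM (-1.27 ± 0.28, adjusted p = 0.0140). Slc25a5, an ATP carrier, was lower as well, a call lost without flox/flox replicates 2, 3 or 4 or without labelled hep-/- replicates 1 or 2 in turn (log2 fold change -0.70 to -0.95, adjusted p 0.0617 to 0.0854). Citrate synthase (Cs), the porin Vdac1 and cytochrome c (Cycs) had -0.10 ± 0.21, adjusted p = 0.780, -0.30 ± 0.22, adjusted p = 0.365, and 0.03 ± 0.25, adjusted p = 0.940. Summed levels were 3728 to 4487 CPM in flox/flox and 2246 to 3759 CPM in labelled livers. Among 7 long noncoding RNAs listed as a sign of RNA makeup, most of them known to stay in the nucleus, Kcnq1ot1 was higher and Norad and Rian lower (42.9% called, against 15.8% of all tested genes), and Malat1 and Neat1 had 0.67 ± 0.41, adjusted p = 0.279, and 0.75 ± 0.51, adjusted p = 0.332. Kcnq1ot1 lost its call without flox/flox replicates 2, 3 or 4 or without labelled hep-/- replicates 1 or 2 in turn (log2 fold change 1.15 to 1.86, adjusted p 0.0551 to 0.175), Norad without flox/flox replicates 2 or 3 or without labelled hep-/- replicates 1 or 2 in turn (log2 fold change -0.95 to -1.17, adjusted p 0.0517 to 0.0629), and Rian without flox/flox replicates 1, 3 or 4 or without labelled hep-/- replicates 1 or 2 in turn (log2 fold change -1.58 to -2.13, adjusted p 0.0680 to 0.102). Kcnq1ot1 was not called with library totals (adjusted p = 0.0659), nor Rian with voom weights (adjusted p = 0.218). Their part in the result was not tested.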

How the data were processed

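Liver RNA of 7 mice, 1 library per mouse, was grouped by the genotype labels. The authors extracted it with TRIzol and used a VAHTS Universal V6 kit, whose RNA selection and strand setting are not given in the sources used here. The submitters' processing notes name fastp, HISAT2, HTSeq, DESeq2 and R 3.2.0, and the build GRCm39. The authors deposited unnormalized counts per gene, and FPKM values, each the count divided by gene length and library total. No column of sample values was left unused, and no library repeated another.

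Genes passing filterByExpr (minimum count 10, minimum total 15) were TMM-normalized and entered the quasi-likelihood F-test of edgeR 4.0.16 (R 4.3.3) with Benjamini-Hochberg adjustment over 15179 genes. A call required a log2 fold change beyond 0.58 in either direction and adjusted p under 0.05. Standard errors came from the F statistic. The test was checked on simulated data. Replicates are separate mice, and equal replicate numbers do not pair them. Transcripts were aligned with blastn 2.17.0 (at least 90% identity over 40 bases). Alternatives used DESeq2 1.42.0, limma 3.58.1, other normalizations and filters, voom weights, a replicate block and each mouse left out.

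Members and gene lists were chosen with earlier results of these data known. The text names all mitochondrially encoded genes, core subunits (except where a result is not reported here), isoform pairs, called nuclear subunits and, per companion list, preset genes and the 3 called genes with the largest change. Atp5h, Cox5a, Cox7c, Ndufb4b and Ndufb4c were added after their values were seen. Cox15, a further called gene of its list, was also named outside this rule, and its call was not followed through the alternatives. A few listed symbols were not analysed here.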

Additional observations from a re-analysis of the deposited data

Results flagged for a closer look

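In the group of 4 B4galt1 flox/flox livers, 16 of the 197 quantities examined had a liver far from the other 3 by Dixon's gap criterion, where chance flags about 1 group in 20. Flox/flox replicate 4 stood above the other controls in 11 of them. Among complex I genes these were Ndufa5 at 91.5 CPM, Ndufa1 at 98.6 CPM, Ndufa11 at 65.5 CPM, Ndufa2 at 134 CPM, Ndufa8 at 124 CPM, Ndufb10 at 169 CPM, Ndufb3 at 66.4 CPM and Ndufc1 at 59.7 CPM. The complex IV subunit Cox6b1 (312 CPM), the assembly factor Cox20 (36.6 CPM) and the transcription factor Mterf1a (2.26 CPM) were also high there. Flox/flox replicate 3 was lowest for COX3 (37.5 CPM), for the mitochondrial to nuclear FPKM ratio of complex III (32.2) and for COX1 over Cox5a (195), and highest for the macrophage marker Adgre1 (71.3 CPM). Uqcrc2 was lowest in flox/flox replicate 1 (204 CPM). Groups of 3 were not examined.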

How the results depend on the processing

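The count of called mitochondrially encoded genes was 12 or 13 under all alternatives. Both group medians and the differences between origins in complexes I, III, IV and V moved by less than the spread between mice under all alternatives. The 12 called nuclear subunit genes became 20 with voom quality weights (11 higher, 9 lower) and 4 with the replicate block, fits in which 19.7% and 8.15% of all genes were called against 15.8%, and 2 to 10 with 1 mouse left out. The 34 called genes of the companion lists became 22 with the replicate block, 49 with voom weights, 47 with DESeq2 (21.5% of all genes called) and 17 to 35 with 1 mouse left out, being 17, 18 and 20 without flox/flox replicates 2, 3 and 4, and 22 and 18 without labelled hep-/- replicates 1 and 2. The replicate numbers did not pair the mice: deviations of same-numbered mice correlated at -0.46, -0.13 and 0.10, and 1 of 6 mice correlated best with its own number. With the block, flox/flox replicate 4, which has no partner, was left out of the fit. That fit ended the calls of Ndufv1 (adjusted p = 0.0540), Ndufs1, Ndufb4, Ndufb7, Sdhd, Uqcrb, Uqcrc1 and Atp5a1 among the members, and of Coq9, Fastk, Fastkd1, Kdr, Mtrf1, Ptcd2, Slc25a5, Tefm, Trem2 and Uqcc1.

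Of 94 named genes, 12 changed sign under some alternative, none of them called. Library totals and limma on the FPKM scales moved the median of all genes by -0.12, -0.16 and -0.20, and the changes of sign listed next for these settings came with that shift. Library totals gave -0.11 for Cox7a1, -0.046 for Ndufs3, -0.11 for Sdhaf2 and -0.11 for Cycs. Limma on log2(FPKM + 1) and on log2(FPKM + 0.1) gave -0.061 and -0.079 for Cox7a1, -0.047 and -0.047 for Ndufs3, -0.098 and -0.11 for Sdhaf2, -0.14 and -0.14 for Cycs, and -0.0012 and -0.0028 for Tfb2m. Upper-quartile factors gave 0.0046 for Cox6a1. Voom weights gave 0.051 for Cox4i1, 0.012 for Cox6a1, -0.061 for Cox7a1 and 0.032 for Cox8a, and the replicate block 0.017 for Cox4i1, 0.079 for Cox6a1 and 0.019 for Cox8a. With 1 mouse left out the ranges were -0.11 to 0.24 for Cox7a1, -0.068 to 0.15 for Sdhaf2, -0.18 to 0.28 for Cycs, -0.17 to 0.10 for Cox4i1, -0.19 to 0.11 for Cox6a1, -0.27 to 0.14 for Cox8a, -0.076 to 0.22 for Ndufs3, -0.029 to 0.43 for Uqcrfs1, -0.025 to 0.36 for Tfb2m, -0.48 to 0.045 for Atp5g2, -0.33 to 0.028 for Sdhc and -0.31 to 0.062 for Cs. The cause of the other changes of sign was not tested. At 0 to 6.27 CPM, ATP8, Cox4i2, Cox6a2 and Cox7a1 rest on few counts.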
